A study of Ovis aries with 10 samples.

Results

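The genes described here encode VGF, the granins and the enzymes that process prohormones in neuroendocrine cells. They were 10 listed genes (VGF, CHGA, CHGB, SCG2, SCG3, SCG5, PCSK1, PCSK2, CPE and PAM), looked up by symbol in a table of read counts for 33775 genes. Of them 8 were matched by symbol, and SCG5, listed under the placeholder name LOC101102647, was matched by its gene identifier. PCSK2 is not analysed here, which leaves 9 members. The set was selected on function, as dense core vesicle cargo and convertases, and on the earlier results of the phase comparison, in particular the low luteal level of VGF. Levels and fold changes of the members between phases are therefore a description and carry no test.

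RNA sequencing was done on the mediobasal hypothalamus, which includes the arcuate nucleus and median eminence. The animals were Ile-de-France ewes, all adult. The groups were 10 ewes in the luteal phase, when the corpus luteum secretes progesterone, and 10 ewes in the follicular phase, when progesterone is low. Within each phase the RNA of 2 ewes was combined at random into each of 5 libraries, so that a library is the mean of 2 animals and no animal is in both phases. No treatment or genetic change is recorded for either group, and phase also differs in oestradiol and in other ovarian signals.

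Neuroendocrine cells pack peptide precursors into dense core vesicles at the trans-Golgi network. The granins (CHGA, CHGB, SCG2 and SCG3) aggregate there with the cargo at low pH and in the presence of calcium. PCSK1 and PCSK2 then cut precursors at pairs of basic residues, CPE removes the basic residues left at the cut end, and PAM turns an exposed terminal glycine into the amide that many neuropeptides need for activity. SCG5, also known as 7B2, is the chaperone of PCSK2. VGF is itself a granin-like precursor, induced by nerve growth factor and by neuronal activity, and is cut into several secreted peptides, among them TLQP-21.

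Library totals ran from 28571863 to 42358557 reads in luteal and from 20644992 to 43193449 reads in follicular libraries, and each member had at least 1672 reads in every library. Levels are given as CPM, read counts scaled to the library's total after TMM scaling, which adjusts for a few abundant genes taking reads from the rest. CPM does not take gene length into account, so levels are compared between libraries and not between genes. Ribosomal protein genes, 74 in the table, took 4.48% to 6.47% of the reads in luteal libraries. They took 4.31% to 8.45% in follicular libraries, with the highest shares in follicular 1 and 3, which were also the shallowest. The 9 members together took 0.727% to 1.16% of the reads in luteal and 0.845% to 1.20% in follicular libraries.

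VGF was the member with the largest difference between phases. VGF (gene identifier 101119872) had 446, 479, 403, 1122 and 369 CPM in luteal libraries 1 to 5, against 1035, 1493, 1171, 1337 and 1389 CPM in follicular libraries 1 to 5. Luteal 1, 2, 3 and 5 lay below every follicular library, and luteal 4 lay inside the follicular range. The mean was 564 ± 315 CPM in luteal and 1285 ± 182 CPM in follicular libraries (SD, n = 5 each), a fitted luteal level of 0.439 times the follicular one (log2 fold change -1.19, SE 0.28). In bulk tissue fewer cells of a type and less RNA per cell cannot be told apart.

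**Figure D1:**
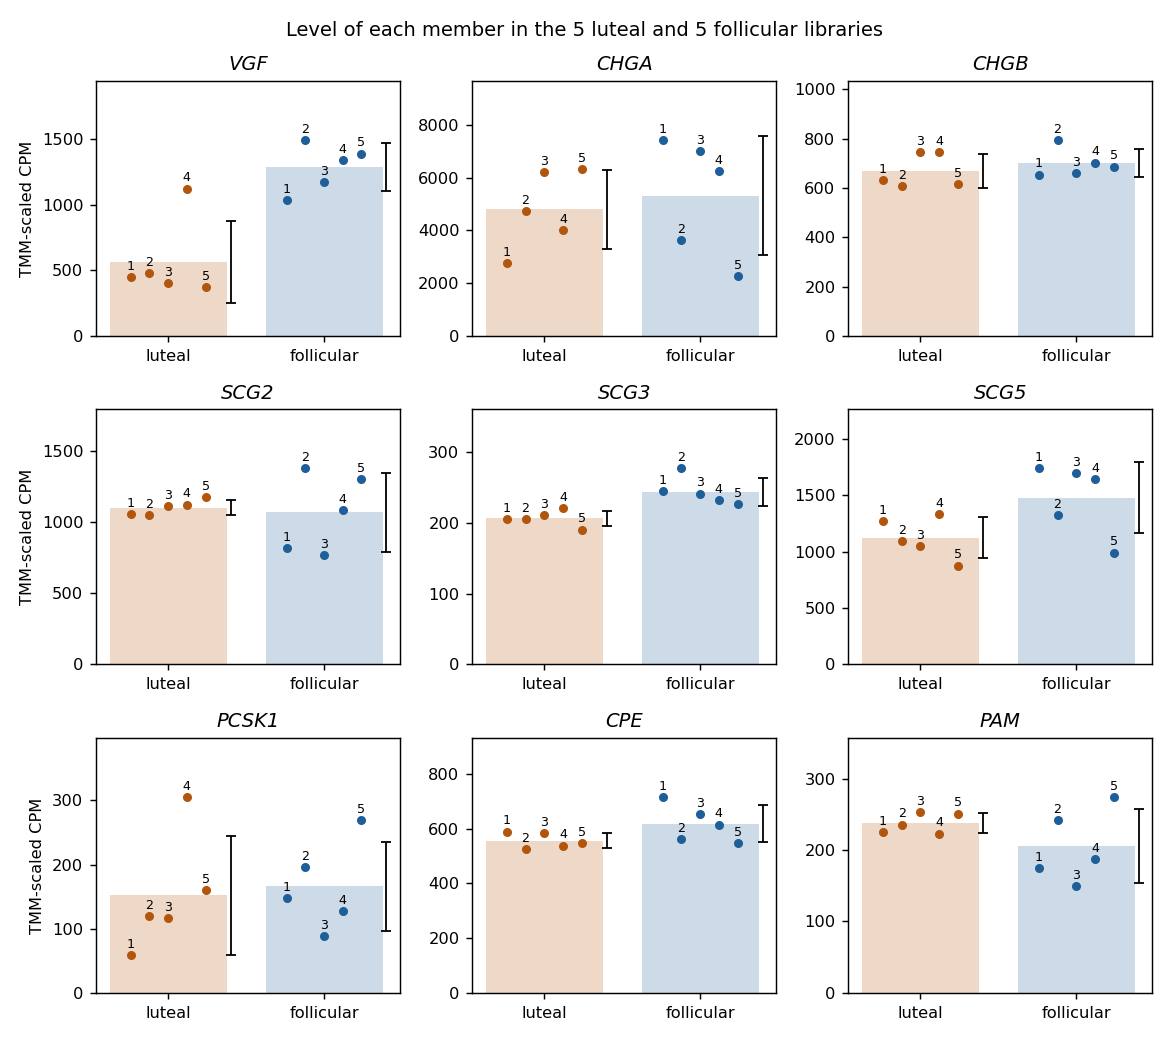
TMM-scaled CPM of the 9 members in luteal (left) and follicular (right) libraries; bars are means, whiskers beside them are SD over 5 libraries, and points are numbered by library. VGF in 4 of 5 luteal libraries lies between 369 and 479 CPM, below the follicular libraries at 1035 to 1493 CPM; of the remaining members SCG3 alone does not overlap between phases.

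Among the granins, SCG3 was the only member whose phases did not overlap. SCG3 (101104667), which binds CHGA and helps to hold the granin aggregate at the vesicle membrane, had 206, 205, 211, 221 and 191 CPM in luteal libraries 1 to 5, against 245, 277, 241, 232 and 226 CPM in follicular libraries 1 to 5. All luteal values were below all follicular values, but the step was small. The mean was 207 ± 10.8 CPM in luteal and 244 ± 19.8 CPM in follicular libraries (SD, n = 5 each; log2 fold change -0.24, SE 0.09). Over all 18276 genes tested, 1.12% had no overlap between phases.

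CHGA, CHGB and SCG2 overlapped widely between phases. CHGA (101114907), chromogranin A, had 2749.5, 4721, 6203, 4001 and 6318 CPM in luteal libraries 1 to 5, against 7437, 3625, 7016, 6267 and 2263 CPM in follicular libraries 1 to 5. The highest and the lowest of the 10 values were both follicular, 3.29 times apart, and the luteal values lay between them. The mean was 4798 ± 1509.9 CPM in luteal and 5322 ± 2262 CPM in follicular libraries (SD, n = 5 each; log2 fold change -0.15, SE 0.32), and the difference was smaller than the SD of either phase. CHGA supplied 38.03% to 60.2% of the members' reads in luteal and 28.5% to 57.4% in follicular libraries.

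CHGB (101115639), chromogranin B, was among the steadiest members. It had 631, 607, 744, 746 and 616 CPM in luteal libraries 1 to 5, against 654, 795, 662, 703 and 687 CPM in follicular libraries 1 to 5. Its mean was 669 ± 70.1 CPM in luteal and 699.9 ± 56.6 CPM in follicular libraries (SD, n = 5 each; log2 fold change -0.07, SE 0.10). SCG2 (101121240), the precursor of secretoneurin, had 1053, 1045, 1109, 1121 and 1173 CPM in luteal libraries 1 to 5, against 815, 1376, 766, 1082 and 1302 CPM in follicular libraries 1 to 5. The luteal libraries were tightly grouped, with a coefficient of variation of 4.79%, and lay inside the follicular range, where it was 25.8%. The mean was 1100.2 ± 52.7 CPM in luteal and 1068 ± 276 CPM in follicular libraries (SD, n = 5 each; log2 fold change 0.04, SE 0.16).

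Of the processing proteins, SCG5 averaged lower in luteal libraries and PAM higher, and CPE was slightly lower. The small PCSK1 difference changed in size or sign with single libraries left out. PCSK1 (443029), the convertase that makes the first cuts in many precursors, had 59.0, 119, 117, 306 and 159.8 CPM in luteal libraries 1 to 5, against 148, 196, 88.7, 127 and 269.6 CPM in follicular libraries 1 to 5. Its highest value of all was in luteal 4, the library that was also highest among luteal libraries in VGF, and its lowest was in luteal 1. Over the 10 libraries PCSK1 ranged 5.18-fold, more than any other member, and the means were 152 ± 93.1 CPM in luteal and 166 ± 69.7 CPM in follicular libraries (SD, n = 5 each; log2 fold change -0.13, SE 0.39). The log2 fold change was -0.55 without luteal 4 and -0.37 without follicular 1 and 3, and it turned to 0.08 without luteal 1 and 0.12 without follicular 5.

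SCG5 (101102647) had 1273, 1091, 1048, 1336 and 877 CPM in luteal libraries 1 to 5, against 1739, 1327, 1699, 1641 and 991 CPM in follicular libraries 1 to 5. Follicular 1, 3 and 4 were above every luteal library, and follicular 2 and 5 were inside the luteal range. The mean was 1125 ± 184 CPM in luteal and 1479.6 ± 317 CPM in follicular libraries (SD, n = 5 each; log2 fold change -0.40, SE 0.17).

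CPE (443028), carboxypeptidase E, had 589, 525, 583, 538 and 548 CPM in luteal libraries 1 to 5, against 716, 563, 652, 615 and 547 CPM in follicular libraries 1 to 5. The mean was 557 ± 28.0 CPM in luteal and 619 ± 68.7 CPM in follicular libraries (SD, n = 5 each; log2 fold change -0.15, SE 0.10), with follicular 1, 3 and 4 above every luteal library. PAM (101112815), the amidating enzyme, had 225, 235, 253, 223 and 251 CPM in luteal libraries 1 to 5, against 175, 242, 149, 187 and 274 CPM in follicular libraries 1 to 5. Follicular 1, 3 and 4 were below every luteal library, the reverse of the order in SCG5 and CPE. The mean was 237 ± 14.1 CPM in luteal and 206 ± 51.3 CPM in follicular libraries (SD, n = 5 each; log2 fold change 0.21, SE 0.15).

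Counted over the 9 members, 7 averaged lower and 2 higher in luteal libraries, with a median log2 fold change of -0.15, where 48.5% of all genes tested were lower and their median was 0.01. The edgeR quasi-likelihood test called 0 members after adjustment over all genes, where it called 0% of the 18276 genes. At an unadjusted edgeR p under 0.05, 3 members (VGF, SCG3 and SCG5) were lower, where 7.12% of all genes were, and 0 were higher, where 4.27% were. DESeq2 called 1 member, VGF, where it called 0.192% of genes, and limma-voom called 0 members and 0% of genes. VGF was the 1 member at least 2-fold lower, as in 0.974% of all genes. In VGF and SCG3 at least 4 luteal libraries lay below every follicular library, as did 3.29% of all genes. Since the members were chosen with this comparison known, nothing is read from these counts.

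Set against the other members within each library, VGF stood lower in luteal libraries to about the same degree as by its own level. The log2 CPM of VGF minus the mean log2 CPM of the 8 other members was -0.16, -0.23, -0.60, 0.76 and -0.70 in luteal libraries 1 to 5, against 0.67, 1.16, 1.02, 1.07 and 1.20 in follicular libraries 1 to 5. Luteal 4 lay above follicular 1 and below the other follicular libraries, and luteal 1, 2, 3 and 5 lay below all of them. The mean was -0.18 ± 0.58 in luteal and 1.02 ± 0.21 in follicular libraries (SD, n = 5 each), a difference of -1.21. The mean of the 8 others ran from 8.96 to 9.37 log2 CPM in luteal and from 9.18 to 9.38 log2 CPM in follicular libraries.

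**Figure D2:**
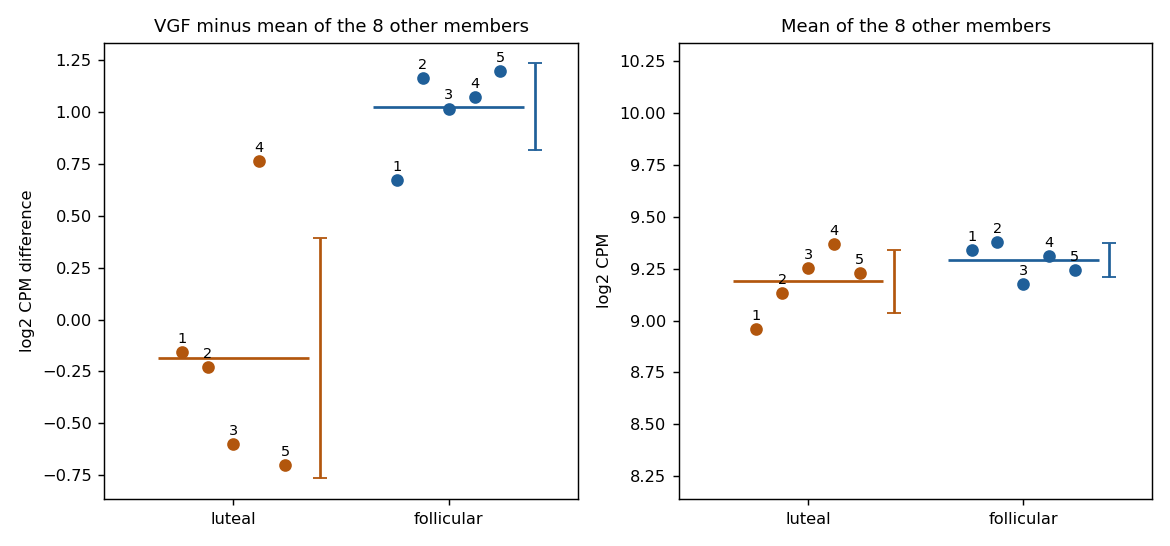
Left, log2 CPM of VGF minus the mean log2 CPM of the 8 other members, and right, that mean itself, in luteal and follicular libraries (points, numbered by library; lines are means and whiskers SD, n = 5 each). VGF relative to the others averages -0.18 in luteal and 1.02 in follicular libraries, with luteal 4 at 0.76.

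Against single members the log2 difference from VGF did not overlap between phases for CHGB, SCG2 and PAM. VGF minus SCG2, for example, ran from -1.67 to 0.00 in luteal and from 0.09 to 0.61 in follicular libraries. VGF minus PAM averaged 1.11 ± 0.71 in luteal and 2.67 ± 0.24 in follicular libraries (SD, n = 5 each). VGF minus PCSK1 averaged 1.96 ± 0.62 in luteal and 3.04 ± 0.53 in follicular libraries. In luteal 4 that difference was 1.88, within the range of the other luteal libraries (1.21 to 2.92), since luteal 4 was high in both genes. These differences share VGF, so they are not separate results. The share of all genes whose difference from VGF would not overlap was not computed, so nothing is read from the lack of overlap.

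Within phases the members did not vary as a single block. Taking each library's deviation from its phase mean in log2 CPM, 20 of the 36 pairs of members had a positive Pearson r over the 10 libraries and 16 a negative one. SCG2 and PAM deviated together (r = 0.91, Spearman rho = 0.75), whereas SCG5 and PAM deviated in opposite directions (r = -0.85, rho = -0.85). For VGF the closest member was PCSK1 (r = 0.64, rho = 0.48), followed by CHGB (r = 0.57, rho = 0.58), and 6 of the 8 others were positive. These r values describe 10 libraries that share depth and RNA composition as sources of variation. The share of positive pairs over all genes was not computed, so nothing is read from the counts of positive pairs.

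**Figure D3:**
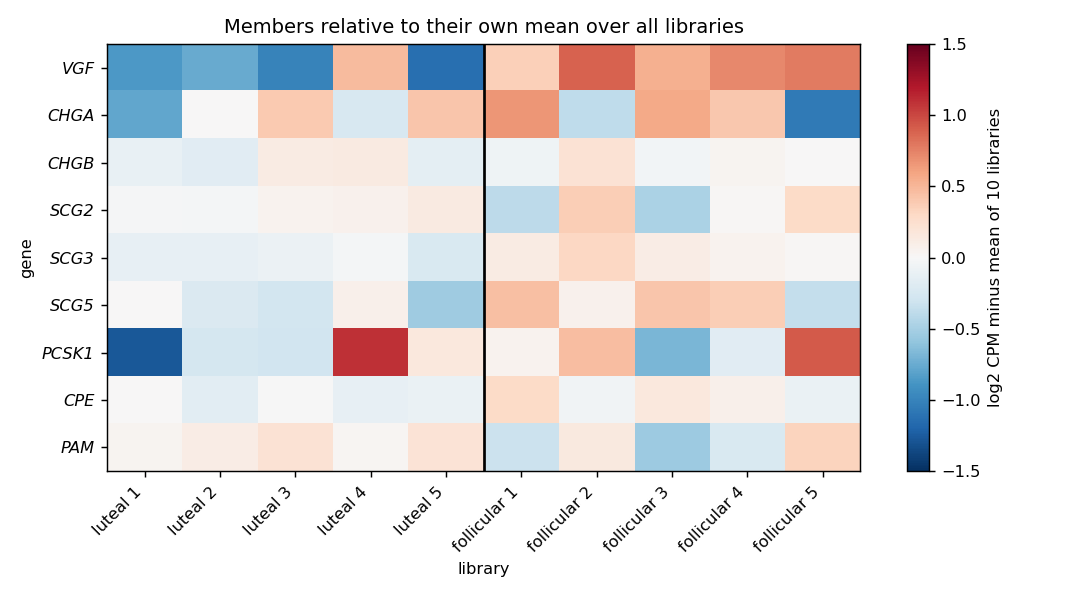
Log2 CPM of each member minus its own mean over the 10 libraries (colour, red above and blue below the mean), with luteal libraries on the left and follicular libraries on the right of the line. VGF is below its mean in luteal 1, 2, 3 and 5, and PCSK1 is highest in luteal 4, while SCG5 and PAM show opposite colours in follicular 1, 3, 4 and 5.

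The pattern of SCG5 and PAM followed the ribosomal protein share of the library. SCG5 rose with that share (Pearson r = 0.960, permutation p = 2e-05, adjusted p = 9e-05 over 9 members; Spearman rho = 0.964, permutation p = 6e-05, adjusted p = 0.00027; n = 10 libraries). PAM fell with it (r = -0.964, permutation p = 1e-05, the smallest that 100000 resamples can give, adjusted p = 9e-05; rho = -0.976, permutation p = 3e-05, adjusted p = 0.00027). The relation did not rest on the libraries farthest out or on phase. Without follicular 1 and 3, r was 0.947 for SCG5 and -0.957 for PAM (n = 8), and on deviations from the phase means it was 0.953 and -0.953 (n = 10).

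Such a relation was common in these libraries. Of the 18276 genes tested, 4.85% had an absolute r at least as large as that of SCG5 and 3.96% at least as large as that of PAM, and the median absolute r over all genes was 0.693. CPE (r = 0.822, permutation p = 0.00309, adjusted p = 0.00927; rho = 0.673, permutation p = 0.0391, adjusted p = 0.088) and SCG2 (r = -0.810, permutation p = 0.0046, adjusted p = 0.01035; rho = -0.685, permutation p = 0.035, adjusted p = 0.088) also passed by Pearson's r. Without follicular 1 and 3 these fell to 0.520 for CPE and -0.408 for SCG2, so both rested on those libraries. VGF (r = 0.444, permutation p = 0.196, adjusted p = 0.2525; rho = 0.236, permutation p = 0.511, adjusted p = 0.5745; r = 0.375 without follicular 1 and 3), CHGA, CHGB, SCG3 and PCSK1 did not pass.

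As an alternative chosen after seeing the data, the libraries' first principal component (51.0% of the variance) was added as a covariate. This component is not the ribosomal share itself but followed it closely (Pearson r = -0.972, permutation p = 2e-05; Spearman rho = -0.976, permutation p = 3e-05; n = 10 libraries; r = -0.954 without follicular 1 and 3 and -0.963 on deviations from the phase means). With it the log2 fold change was -0.07 for SCG5, -0.01 for PAM and -1.11 for VGF, against -0.40, 0.21 and -1.19 without it. With follicular 1 and 3 left out, it was -0.23 for SCG5, 0.02 for PAM and -1.31 for VGF. The part of RNA composition in these differences was not tested.

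CHGA had its highest luteal levels in libraries with a low ribosomal share and its highest follicular levels in those with a high one, a contrast that was not tested. Luteal 5 and 3, with shares of 4.48% and 4.80%, had 6318 and 6203 CPM, and luteal 1, with 6.13%, had 2749.5 CPM. Follicular 1, 3 and 4, with shares of 8.44%, 8.45% and 7.42%, had 6267 to 7437 CPM, and follicular 5, with 4.31%, had 2263 CPM. Luteal 5 and follicular 5, close in ribosomal share, thus had 6318 and 2263 CPM. Over all 10 libraries CHGA had r = 0.511 (permutation p = 0.129, adjusted p = 0.232) and rho = 0.527 (permutation p = 0.124, adjusted p = 0.185), and r = 0.158 without follicular 1 and 3. Within phases CHGA had r = -0.852 in luteal and 0.989 in follicular libraries (n = 5 each). VGF had the opposite signs, 0.782 in luteal and -0.802 in follicular libraries, so its r over all libraries also joins opposed relations. These were not tested.

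**Figure D4:**
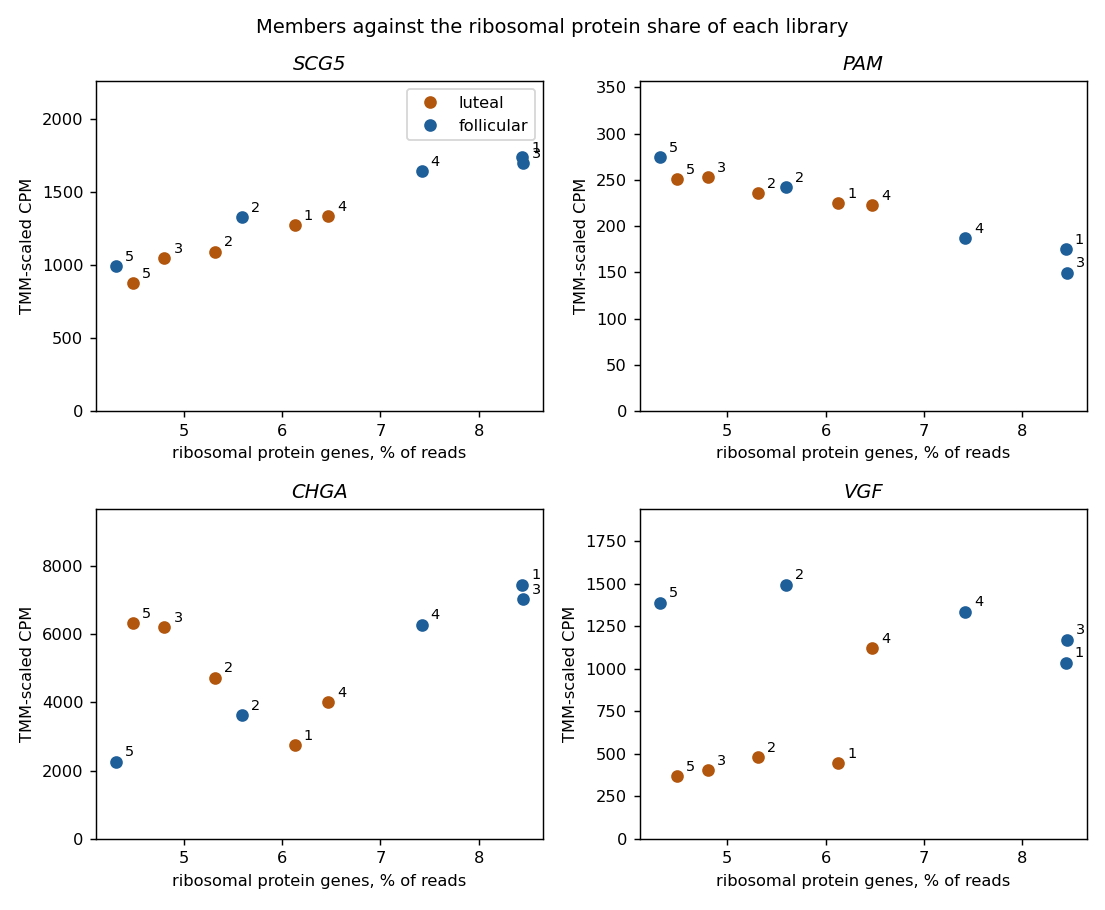
TMM-scaled CPM of SCG5, PAM, CHGA and VGF against the percentage of reads in ribosomal protein genes, for luteal and follicular libraries (points numbered by library). SCG5 rises (r = 0.960) and PAM falls (r = -0.964) with the share across both phases, CHGA is lower at higher shares in luteal and higher at higher shares in follicular libraries, and VGF in luteal 1, 2, 3 and 5 lies below every follicular library.

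The cells that could supply these transcripts were followed through marker genes, as the sum of their CPM in each library. Neuron markers, all 11 detected in every library, summed to 2185 to 2835 CPM in luteal and 2522 to 2787 CPM in follicular libraries (log2 difference -0.17, exact permutation test, two-sided as for all lists, p = 0.0635; adjusted over 9 lists, p = 0.286). Single neuron markers did not move together. SYP (485 CPM in luteal and 604 CPM in follicular libraries), STMN2, GAP43, SYN1 and RBFOX3 averaged lower in luteal libraries. SNAP25 (177 CPM in luteal and 144 CPM in follicular libraries), MAP2, SYT1 and INA averaged higher, and NEFL and ELAVL4 were close. Of 13 pituitary endocrine markers 12 were matched, with POU1F1 and GHRHR at 0 in some libraries, and they summed to 2799 to 4978 CPM in luteal and 3439 to 4979 CPM in follicular libraries (log2 difference -0.12, exact permutation test, p = 0.508, adjusted p = 0.532). CGA, PRL and TSHB, hormone genes of the pituitary and its pars tuberalis, were read in every library. Pituitary endocrine cells also express granins and convertases, and their part in the members' levels was not tested.

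Markers of magnocellular and paraventricular neurons, which lie outside the arcuate nucleus, did not move together. All 6 were matched. AVP, OXT and TRH, hormone precursors, averaged lower in luteal libraries, with AVP at 330.4 ± 236 CPM in luteal and 1109.8 ± 765 CPM in follicular libraries (SD, n = 5 each). The transcription factor OTP averaged higher, at 7.21 ± 1.902 CPM in luteal and 3.65 ± 3.14 CPM in follicular libraries, and CRH was close, at 3.86 ± 1.22 and 3.75 ± 0.77 CPM. SIM1, a transcription factor of these neurons, was near 0 throughout and at 0 in follicular 2, 3 and 4. The sum, most of it AVP, was 577, 685, 266, 286 and 76.0 CPM in luteal libraries 1 to 5, against 1485, 716, 1244, 2370.3 and 287 CPM in follicular libraries 1 to 5 (log2 difference -1.72, exact permutation test, p = 0.0397, adjusted p = 0.286). Both this sum and VGF averaged lower in luteal libraries, and luteal 5 was the lowest library in both. The highest VGF was in follicular 2 (716 CPM of the sum), and the highest sum was in follicular 4 (1337 CPM of VGF). Follicular 5 and luteal 4, with sums of 287 and 286 CPM, had 1389 and 1122 CPM of VGF. Luteal 2, with the highest luteal sum at 685 CPM, had 479 CPM of VGF. The part of these transcripts or neurons in the VGF difference was not tested.

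None of the other marker lists passed after adjustment (astrocyte, oligodendrocyte, microglia, endothelium, choroid plexus and arcuate neuron markers, exact permutation p from 0.127 to 0.532, adjusted p from 0.286 to 0.532). The smallest p this test can give is 0.00794, so a single list could not pass on its own after adjustment over 9 lists. Nothing is therefore read from the lack of a passing list. Luteal 4, the luteal library high in VGF and PCSK1, was also the highest in choroid plexus markers, at 148 CPM against 53.5 to 73.5 CPM in the other luteal libraries and 32.7 to 63.6 CPM in follicular libraries. Its part in the VGF level of that library was not tested.

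The other enzymes and inhibitors of precursor processing showed no shared direction. Of 28 listed genes 26 were tested, 11 of them lower and 15 higher in luteal libraries, with a median log2 fold change of 0.01, as for all genes. None was called by edgeR, DESeq2 or limma-voom, and at an unadjusted edgeR p under 0.05 there were 0 lower and 2 higher, PCSK5 and CPM (all genes, 7.12% lower and 4.27% higher). PCSK1N, the precursor proSAAS that inhibits PCSK1, had 1901, 1327, 1131, 1814 and 914 CPM in luteal libraries 1 to 5, against 2733, 1797, 2588, 2204 and 1113 CPM in follicular libraries 1 to 5. It averaged 1417 ± 429 CPM in luteal and 2087 ± 655 CPM in follicular libraries (SD, n = 5 each; log2 fold change -0.56, SE 0.26, edgeR adjusted p = 0.426).

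FURIN, the convertase of the constitutive pathway, averaged 75.1 ± 12.5 CPM in luteal and 74.5 ± 3.48 CPM in follicular libraries (log2 fold change 0.01, SE 0.11, edgeR adjusted p = 0.956). PCSK5, a related convertase, averaged 26.2 ± 4.24 CPM in luteal and 20.7 ± 3.78 CPM in follicular libraries (log2 fold change 0.33, SE 0.15), and the gene named CPM, carboxypeptidase M, 1.748 ± 0.27 and 1.150 ± 0.39 CPM in luteal and follicular libraries (log2 fold change 0.58, SE 0.25). SERPINA1, a secreted serine protease inhibitor, averaged 2.43 ± 1.35 CPM in luteal and 1.18 ± 0.71 CPM in follicular libraries (log2 fold change 1.08, SE 0.52). The edgeR adjusted p was 0.426 for PCSK5, CPM and SERPINA1.

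Genes of dense core vesicle formation and release were mixed. Of 43 listed genes 40 were tested, 16 lower and 24 higher in luteal libraries, with a median log2 fold change of 0.06. None was called by edgeR, DESeq2 or limma-voom, and at an unadjusted edgeR p under 0.05 there were 7 lower and 2 higher (all genes, 7.12% and 4.27%). PTPRN, also known as IA-2, a membrane protein of the vesicles, had 679, 733, 545, 1053 and 544 CPM in luteal libraries 1 to 5, against 1115, 1091, 1083, 1055 and 785 CPM in follicular libraries 1 to 5. Luteal 4 was again the luteal library inside the follicular range (means 711 ± 209 CPM in luteal and 1026 ± 136 CPM in follicular libraries, SD, n = 5 each; log2 fold change -0.53, SE 0.18, edgeR adjusted p = 0.426).

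SYT5, a calcium sensor of vesicle fusion, averaged 261 ± 44.5 CPM in luteal and 387 ± 81.7 CPM in follicular libraries (log2 fold change -0.57, SE 0.16). CYB561, which passes electrons into the vesicle for the amidating reaction, averaged 126 ± 16.6 CPM in luteal and 159.8 ± 16.5 CPM in follicular libraries (-0.34, SE 0.11), and ICA1 51.4 ± 7.78 and 65.3 ± 11.4 CPM in luteal and follicular libraries (-0.34, SE 0.14). All 3 had an edgeR adjusted p of 0.426. PTPRN2, the paralogue of PTPRN, averaged 306 ± 15.04 CPM in luteal and 294 ± 15.6 CPM in follicular libraries (0.06, SE 0.08). The priming factor CADPS averaged 110.8 ± 23.7 CPM in luteal and 86.3 ± 24.1 CPM in follicular libraries (0.36, SE 0.20), and CADPS2 27.9 ± 3.96 and 24.9 ± 7.05 CPM (0.16, SE 0.18), with edgeR adjusted p from 0.433 to 0.686 for PTPRN2, CADPS and CADPS2.

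Known inducers of VGF, members of the CREB pathway and receptors of the VGF peptide TLQP-21 were compared in the same way. Of 25 listed genes 24 were tested, 10 lower and 14 higher in luteal libraries (median log2 fold change 0.06), with 0 called by edgeR, DESeq2 or limma-voom and, at an unadjusted edgeR p under 0.05, 2 lower and 0 higher (all genes, 7.12% and 4.27%). The 2 were CRTC1, a coactivator of CREB, at 112.6 ± 8.23 CPM in luteal and 134 ± 13.8 CPM in follicular libraries, and PRKAR1A, a regulatory subunit of protein kinase A, at 699 ± 73.7 CPM in luteal and 848 ± 93.0 CPM in follicular libraries (log2 fold changes -0.25, SE 0.10, and -0.28, SE 0.11; edgeR adjusted p = 0.426 for both). CRTC1 was highest among luteal libraries in luteal 4, at 127 CPM.

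PRKACA, a catalytic subunit of protein kinase A, averaged 62.2 ± 10.3 CPM in luteal and 41.7 ± 19.2 CPM in follicular libraries (0.57, SE 0.27, edgeR adjusted p = 0.426), and CRTC3 67.7 ± 7.88 and 58.6 ± 8.37 CPM (0.21, SE 0.12, edgeR adjusted p = 0.441). The neurotrophin BDNF averaged 4.01 ± 1.31 CPM in luteal and 4.68 ± 0.78 CPM in follicular libraries, its receptor NTRK2 225 ± 49.4 and 237 ± 70.2 CPM, CREB1 24.3 ± 3.29 and 23.1 ± 3.16 CPM, and C3AR1, a TLQP-21 receptor in rodents, 3.23 ± 1.28 and 2.43 ± 0.73 CPM in luteal and follicular libraries. Their edgeR adjusted p ran from 0.496 to 0.857.

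Of 49 listed neuropeptide precursors, the cargo of these vesicles, 42 were tested, and 34 were lower and 8 higher in luteal libraries, where 48.5% of all genes were lower. Their median log2 fold change was -0.32, against 0.01 over all genes. Unadjusted edgeR p was under 0.05 for 10 lower and 0 higher genes, where 7.12% of all genes were lower and 4.27% higher at that p. None was called by edgeR or limma-voom, and DESeq2 called OXT, TRH and NPW, where it called 0.192% of all genes. The smallest p were those of TRH at 10.5 ± 1.95 CPM in luteal and 18.4 ± 3.76 CPM in follicular libraries, NPW, the neuropeptide W precursor, at 4.06 ± 1.05 and 9.29 ± 3.49 CPM, OXT at 26.0 ± 13.5 and 84.9 ± 39.9 CPM and CALCB, a calcitonin gene-related peptide precursor, at 15.8 ± 2.13 and 25.6 ± 7.43 CPM (SD, n = 5 each; log2 fold changes -0.80, -1.19, -1.70 and -0.69; edgeR adjusted p = 0.426 for all). The list median was -0.18 with follicular 1 and 3 left out. It was -0.08 with the principal component, which itself differed between phases, in the fit. The list was assembled with earlier results of these data known, among them those for OXT and TRH, so its counts are a description.

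**Figure D5:**
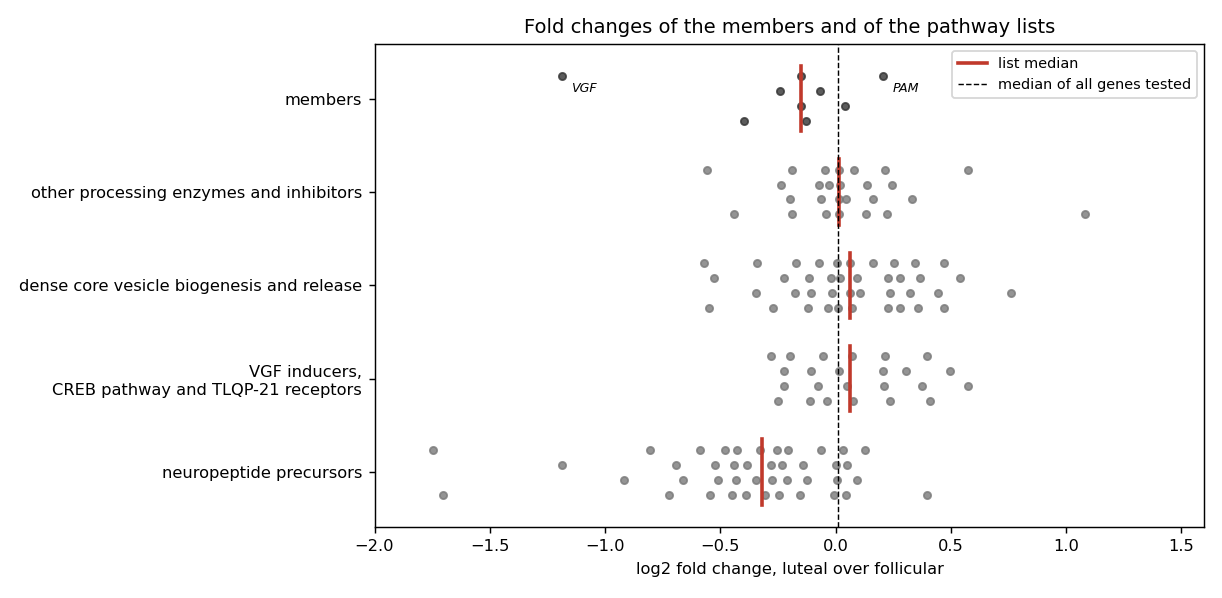
Log2 fold change (luteal over follicular, edgeR) of each tested gene in the members and the 4 pathway lists; red lines are list medians and the dashed line is the median of all genes tested (0.01). The medians are -0.15 for the members, 0.01 for other processing enzymes, 0.06 for vesicle biogenesis and release, 0.06 for VGF inducers and the CREB pathway, and -0.32 for neuropeptide precursors.

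The genes whose log2 CPM over the 10 libraries was most like that of VGF, among 11171 genes with a mean of at least 10 CPM, were CRELD2 (r = 0.925, rho = 0.733), HSP90B1 (r = 0.919, rho = 0.758), ADGRA1 (r = 0.917, rho = 0.855), CPLX2 (r = 0.916, rho = 0.867) and MANF (r = 0.914, rho = 0.830). CRELD2, HSP90B1 and MANF are proteins of the endoplasmic reticulum, ADGRA1 is an adhesion G protein-coupled receptor and CPLX2 is a presynaptic protein. SCG3 ranked 52 (r = 0.833, rho = 0.782), the highest of the members. On deviations from the phase means the 5 most alike were SEZ6L2 (r = 0.982, rho = 0.952), SPINT2 (r = 0.956, rho = 0.879), CKAP4 (r = 0.952, rho = 0.830), PLOD3 (r = 0.951, rho = 0.879) and PDIA6 (r = 0.945, rho = 0.891), and the nearest member was PCSK1 at rank 655. The largest deviation of VGF from its phase mean was that of luteal 4.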

How the data were processed

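TriReagent extracts were made into TruSeq stranded mRNA libraries, per the labels' protocols. The tools TopHat2 2.1.1 and featureCounts 2.0.0 are among those listed in the submitters' processing notes. Build and strand setting are not given in the sources used here, so overlapping genes may share reads. The deposited table holds raw counts, 1 column per library, as the authors made it. Its 33775 gene identifiers were looked up in a table of ARS-UI_Ramb_v3.0 genes for names only, and 31873 (94.4%) matched. No sequences or gene lengths were used.

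Counts were analysed in R 4.3.3 by edgeR 4.0.16 (quasi-likelihood test) on all 10 libraries, phase as the only term, after filterByExpr (minimum count 10, minimum total 15) and TMM scaling, with Benjamini-Hochberg adjustment over 18276 genes and a threshold of 0.05. Fold changes are luteal over follicular. The SE is the fold change divided by the root of the F statistic. DESeq2 1.42.0 and limma-voom (limma 3.58.1) were alternatives. Log2 CPM used a prior count of 2. Summed marker levels were compared by two-sided exact permutation over all 252 assignments (smallest p 0.00794).

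The members and gene lists were chosen with earlier results of these data known. Of 218 listed genes 213 were matched. Named from each pathway list were the 4 genes with the smallest p and a fixed set (PCSK1N, FURIN, PTPRN, PTPRN2, CADPS, CADPS2, BDNF, NTRK2, C3AR1, CREB1), and the 5 genes most like VGF by each measure. Further alternatives were scaling by RLE or by upper quartile, leaving genes unfiltered, 1 CPM in 5 libraries, the replicate number as a block, and leaving out libraries. All 45 pairs of libraries differed by more than sampling noise.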

Additional observations from a re-analysis of the deposited data

Results flagged for a closer look

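Within each phase, the gap between the most extreme library and its neighbour was taken as a share of the whole range and set against Dixon's critical value (0.71). Of 86 sets of values screened 6 exceeded it, where chance gives about 1 in 20 (4.3). Luteal 4 accounted for 3 of them: VGF at 1122 CPM, with the next luteal library at 479 CPM; summed choroid plexus markers at 148 CPM, with the next at 73.5 CPM; and CRTC1 at 127 CPM, with the next at 113 CPM. Luteal 5 had the lowest sum of arcuate neuron markers, 1157 CPM, with the next luteal library at 1623 CPM. Follicular 5 had the lowest follicular PTPRN, 785 CPM, with the next at 1055 CPM. Follicular 1 had the lowest follicular BDNF, 3.33 CPM, with the next at 4.76 CPM.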

How the results depend on the processing

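The number of genes called by edgeR was 0 and was 0 to 1 with single libraries left out; the 1 gene was VGF, called without luteal 4, the library farthest from the other luteal libraries in VGF. DESeq2 called 35 genes. At an unadjusted p under 0.05 there were 2083 genes, 958 to 6217 with single libraries left out, 4512 with the replicate number as a block, and 608 with follicular 1 and 3 left out; the cause was not tested. Deviations of same-numbered libraries correlated from -0.33 to 0.63, and 4 of 10 libraries correlated best with their own number. With 5 libraries per phase, these values cannot settle whether same-numbered libraries are related. VGF relative to the other 8 members was -1.21, from -1.45 to -1.08 with single libraries left out and from -1.33 to -1.20 otherwise. The VGF log2 fold change was -1.60 to -1.07 over 19 alternatives, and VGF, CHGB, SCG3, SCG5 and CPE kept their sign in all of them. The sign turned for CHGA in 3 alternatives (up to 0.25), SCG2 in 4 (down to -0.18), PCSK1 in 2 (from -0.55 without luteal 4 to 0.12 without follicular 5) and PAM in 1 (-0.01). At an unadjusted p under 0.05, leaving out single libraries gave 0 to 7 of the other processing enzymes against 2, 3 to 18 of the vesicle genes against 9, 0 to 8 of the VGF inducers and CREB pathway against 2 and 9 to 15 of the precursors against 10. The first 3 lists were highest without follicular 5. The median of the neuropeptide precursors was -0.46 to -0.21 with single libraries left out and -0.33 to -0.08 otherwise. All 117 alternative values of the marker lists stayed short of the threshold, which a single list could not pass on its own after adjustment. Each phase has 5 libraries of 2 ewes, which limits what these comparisons can resolve.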

Other observations

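Other genes of the vesicle list, chosen after their values were seen, had an unadjusted edgeR p under 0.05. RPH3A, an effector of RAB3A and RAB27A on secretory vesicles, averaged 38.4 ± 1.95 CPM in luteal and 46.4 ± 7.51 CPM in follicular libraries, and UNC13A, a priming factor, 135.7 ± 10.9 and 158.7 ± 18.2 CPM (SD, n = 5 each). EIPR1, which takes part in sorting to dense core vesicles, averaged 87.3 ± 28.8 CPM in luteal and 127.9 ± 38.2 CPM in follicular libraries. SYTL4, a granule protein that binds RAB27A, averaged 20.9 ± 2.31 CPM in luteal and 17.6 ± 1.65 CPM in follicular libraries, and VPS41, needed for granin storage in insulin-secreting rat cells, 95.0 ± 8.84 and 80.7 ± 8.54 CPM. Among the precursors, NUCB2, the source of nesfatin, averaged 42.9 ± 2.80 CPM in luteal and 51.2 ± 4.16 CPM in follicular libraries (log2 fold change -0.26, SE 0.09). NUCB2, TRH and CALCB had no overlap between phases, as did 1.12% of all genes tested. The edgeR adjusted p of RPH3A, UNC13A, EIPR1, SYTL4, VPS41 and NUCB2 was 0.426.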
